A study of Mus musculus with 12 samples.

Results

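Co-culture with osteoclasts changed the RNA of preosteoblasts on control titanium in several named gene groups. Hmox1, the metallothioneins Mt1 and Mt2, 20 of 26 tested genes of glycolysis, 14 of 27 heat shock proteins and 30 of 51 lysosomal genes were called higher, against 11.0% of all tested genes. Against 8.76% of all tested genes, 19 of 46 replication-dependent histones and 12 of 23 genes of cholesterol synthesis were called lower. So were 10 of 25 genes of a mineralisation list, among them Matn4 and Tnfrsf11b. The other members of these lists were mostly not called. The comparison is of 3 libraries of co-cultured cells on control titanium with 3 libraries of isolated cells on the same surface, 6 of the 12 libraries of the series. It was chosen by the labels alone, and the changes are described across all expressed genes. The cells were MC3T3-E1 subclone 14, a clonal line of mouse calvaria preosteoblasts, so all values come from 1 clone. Both groups grew on titanium discs under osteogenic conditions, with ascorbic acid at 5 µg/mL and β-glycerophosphate at 7 mM, and TRIzol extracts of total RNA were made on day 7. Co-cultured cells spent 5 days apart and then 2 days below inserts with 0.4 µm pores that held osteoclasts made from RAW 264.7 mouse macrophages with RANKL at 50 ng/mL. Isolated cells had no insert, no RANKL and no second cell type. What osteoclasts did cannot be told apart from what RANKL, the insert or a second population of cells in the same well did. The labels call the 3 libraries of each group biological triplicates. The other 6 libraries are the same 2 cultures on titanium with nanotopography, and they entered the estimate of the spread and a test of the difference between surfaces.

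Osteoblasts lay down a matrix of type I collagen and mineralise it, and osteoclasts, large cells of the macrophage lineage, dissolve bone with acid and proteases. Each cell type controls the other: osteoblasts supply M-CSF (Csf1) and RANKL (Tnfsf11), which osteoclasts need, and osteoprotegerin (Tnfrsf11b), a decoy that binds RANKL. In a culture with inserts only soluble or vesicle-borne signals, nutrients and oxygen are shared. Bulk RNA of a culture is a sum over cells, so fewer cells of a type and less RNA per cell cannot be told apart.

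The sequences before RefSeq start sites of a few genes are shown first, since some of the gene families that rose have known response elements. They come from RefSeq on GRCm38.p6, and capitals mark the letters searched for. Mt2, a metallothionein that binds zinc and copper, was called higher with a fold change of 9.82. The metal response element core, TGCGCNC or TGCACNC on either strand, is the site that metal-responsive transcription factor binds. Mt2 had 3 matches in the 250 bases before its start and Mt1, called higher by 1.52 on the log2 scale, had 1:
Mt2, chr8:94172368-94172607, + strand: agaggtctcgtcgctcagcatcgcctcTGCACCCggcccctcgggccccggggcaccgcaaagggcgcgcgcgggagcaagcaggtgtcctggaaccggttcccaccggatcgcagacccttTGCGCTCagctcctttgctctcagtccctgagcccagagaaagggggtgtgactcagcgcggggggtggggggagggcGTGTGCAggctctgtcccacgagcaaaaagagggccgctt
Mt1, chr8:94178839-94179078, + strand: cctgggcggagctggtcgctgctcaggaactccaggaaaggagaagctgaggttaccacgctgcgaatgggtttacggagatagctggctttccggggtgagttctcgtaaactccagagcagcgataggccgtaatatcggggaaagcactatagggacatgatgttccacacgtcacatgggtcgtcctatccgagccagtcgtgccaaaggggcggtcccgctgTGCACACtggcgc
In Mt2 the matches begin 223, 128 and 50 bases before the start, and in Mt1 the match begins 23 bases before it. The letters are common: 21.4% of the 32851 promoter windows and 35.2% of the 9059 tested genes with a window hold at least 1 match, against 34.7% of the genes called higher. In the list of metal and iron genes 6 of 19 with a window (31.6%) held them, a share below that of all tested genes. Of its members called higher 4 of 8 (50.0%) did. Among the hypoxia targets described next 13 of 23 (56.5%) held them, and among those called higher 8 of 13 (61.5%).

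Hypoxia-inducible factor binds the letters ACGTG, and the genes it is known to control include glucose transport, glycolysis and its own prolyl hydroxylases. Short windows with these letters, or CACGT where the match is on the other strand, are shown for 5 members of the glycolysis and hypoxia lists:
Slc2a1, chr4:119108699-119108723, + strand: cccgccccggACGTGctccccaggc
Hk2, chr6:82774492-82774516, - strand: tgagcacatcCACGTcactgtccgg
Car9, chr4:43506998-43507022, + strand: atttccgatgCACGTacagcccgtc
Ero1l, chr14:45318621-45318645, - strand: cgcgccgctgCACGTccgcagggga
Egln1, chr8:124949308-124949332, - strand: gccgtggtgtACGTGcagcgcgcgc
Over all windows 16.6% held these letters, over tested genes 25.7% and over genes called higher 27.3%. Of the tested members of the glycolysis list 11 of 25 with a window (44.0%) held the hypoxia letters, and of the other hypoxia targets 17 of 23 (73.9%). Of the members called higher the numbers were 9 of 19 and 11 of 13. Atf3, a transcription factor of the stress response, had a match to the amino acid response element (TGATGCAA or TTGCATCA), which 0.629% of tested genes and 1.07% of genes called higher held:
Atf3, chr1:191183426-191183453, - strand: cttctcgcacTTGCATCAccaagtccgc
The antioxidant response element (TGACNNNGC) was in 13.9% of tested genes and 14.9% of those called higher. By the GENCODE positions used for genes elsewhere, the windows of Car9, Ero1l and Atf3 lie within the gene. Those of Slc2a1 and Egln1 reach into it. A match describes the letters and is not a measured binding site.

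Between 5866842 and 9207831 reads were counted per library among the 6. In CPM, counts scaled to a fixed library total, libraries of 1 group correlated on the log scale between 0.978 and 0.989 and libraries of different groups between 0.958 and 0.971. Isolated library 3 stood apart from the other isolated libraries on the second principal component (-29.4, 16.2% of the variance). It had the fewest reads and the largest share of reads in Gm26917 and Gm42418, 2 transcripts that hold ribosomal RNA sequence, at 5.46%. That share was 2.77 and 3.21% in the other isolated libraries and 1.52 to 2.08% in co-culture, with no overlap between groups. Mitochondrial ribosomal RNA took 6.70 to 9.80% of the reads in isolated cells and 6.15 to 6.73% in co-culture. All 14 osteoblast markers were detected in both groups, with a summed level of 84630 to 97910 CPM in isolated cells and 75020 to 87030 CPM in co-culture. How the counting treated strand is not given in the sources used here, so overlapping genes on opposite strands cannot be told apart.

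Of 13340 tested genes, 2637 (19.8%) were called, that is, had a Benjamini-Hochberg adjusted p below 0.05 in edgeR's quasi-likelihood test. Of these 1468 (11.0%) were higher in co-culture and 1169 (8.76%) were lower. Upper-quartile scaling gave 1168 higher and 1475 lower, so the split between directions depended on the scaling. The counts of the gene lists below are to be read against these shares. Called genes with at least a 2-fold change numbered 553 (4.15%), 243 higher and 310 lower. The 3 and 3 libraries did not overlap for 4821 genes (36.1%), among them 2526 of the 2637 called. Without isolated library 2 the number called was 1432, without isolated library 1 it was 1494 and without co-culture library 2 it was 1628, while without isolated library 3 it was 2979. Here and below a value given without a library is from a fit with that 1 library left out. Of the 1468 genes called higher, 726 changed by less than 1.5-fold and 41 by more than 4-fold, with a median of 1.51-fold. Of the 1169 called lower 408 and 56 did, with a median of 1.63-fold. The genes called higher took 15.1% of the CPM in isolated cells and 23.2% in co-culture, and those called lower 11.1% and 6.86%. Calls were more frequent among abundant genes, at 31.9% of the 1728 genes with at least 100 CPM and 12.1% of the 4886 genes under 10 CPM.

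**Figure D1:**
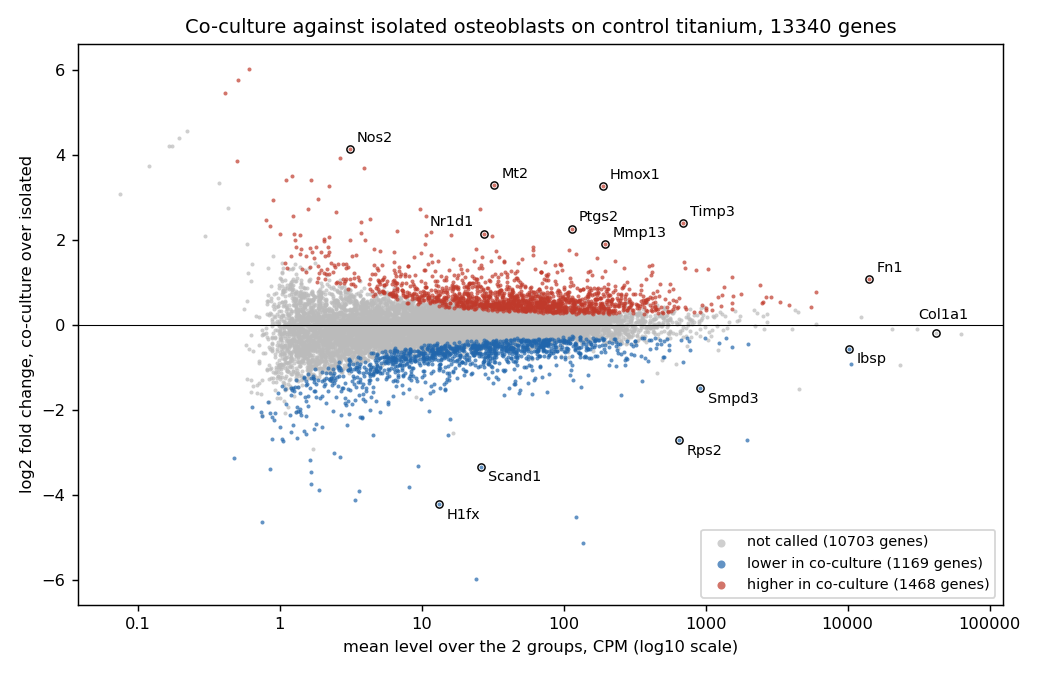
Log2 fold change of co-culture over isolated cells (y axis) against mean CPM on a log10 scale (x axis) for the 13340 tested genes. The 1468 genes called higher and the 1169 called lower stand on both sides of 0 at all levels, and the largest changes among named genes are labelled.

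Hmox1, heme oxygenase, which breaks down heme, had the second largest fold rise under the rule for named genes. Isolated cells held it at 27.5, 32.9 and 46.4 CPM and co-cultures at 346, 351 and 326 CPM, a log2 fold change of 3.27 ± 0.15 (edgeR, adjusted p = 4.77e-10). Hmox1 lies at chr8:75093621-75100589 (mm10). Mt2 was at 4.57, 4.55 and 9.25 CPM in isolated cells and at 46.9, 57.6 and 71.1 CPM in co-culture. The groups did not overlap in either gene, and the lowest co-culture value was at least 5 times the highest isolated value in both.

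Next in size were Tnfrsf9 (log2 fold change 2.74), a receptor of the TNF family known from activated lymphocytes, Atf3 (2.57), Timp3 (2.41) and Ptgs2 (2.27). Timp3, an inhibitor of metalloproteinases that binds to the matrix, was at 187, 205 and 263 CPM in isolated cells and at 1249.8, 1125 and 1092 CPM in co-culture. It overlaps Syn3 on the opposite strand, which was at 2.31 and 3.95 CPM, far below it. Nr1d1 (2.15), a repressor of the circadian clock, overlaps Thra, which was also called higher. Others of the 12 largest rises were Fbxo40 (2.18), an F-box protein, Maff (2.12), a small MAF transcription factor, Clec2d (2.12), a lectin-like ligand, Ddit3 (2.10), the stress factor CHOP, and Mmp13 (1.90), a collagenase.

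Among the 12 largest falls were 4 histone genes and several short housekeeping genes. H1fx, a linker histone, was at 22.3, 24.3 and 29.3 CPM in isolated cells and at 1.41, 1.96 and 0.603 CPM in co-culture, a log2 fold change of -4.21 ± 0.25 (edgeR, adjusted p = 4.97e-09). With removal of the GC and length trends it was -2.88, that of Scand1 -2.38 and that of Ppp1r14b -1.42. Scand1 (-3.34), a SCAN domain protein, H2afx (-2.59) and H2afz (-1.59), variant histones, and Hist2h2ac (-1.58), a replication-dependent histone, also fell. Rps2, a protein of the small ribosomal subunit, fell from 948, 1064 and 1386 CPM to 129, 192 and 199 CPM (-2.71 ± 0.19). Other falls were of Ppp1r14b (-2.03), a phosphatase inhibitor, Scarf2 (-1.63), a scavenger receptor, Mrfap1 (-1.63), Rnaseh2c (-1.59), a subunit of RNase H, and mt-Nd6 (-1.66), a mitochondrially encoded subunit of complex I. The call of mt-Nd6 (adjusted p = 0.0344, edgeR) was lost without isolated library 1 or 2 or co-culture library 1 or 2, with adjusted p between 0.0933 and 0.135, with no filter on low counts (0.0791) and with only the groups compared (0.0648). H1fx overlaps an antisense gene that also fell, and Rps2 has near-identical pseudogenes, so its counts are uncertain.

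**Figure D2:**
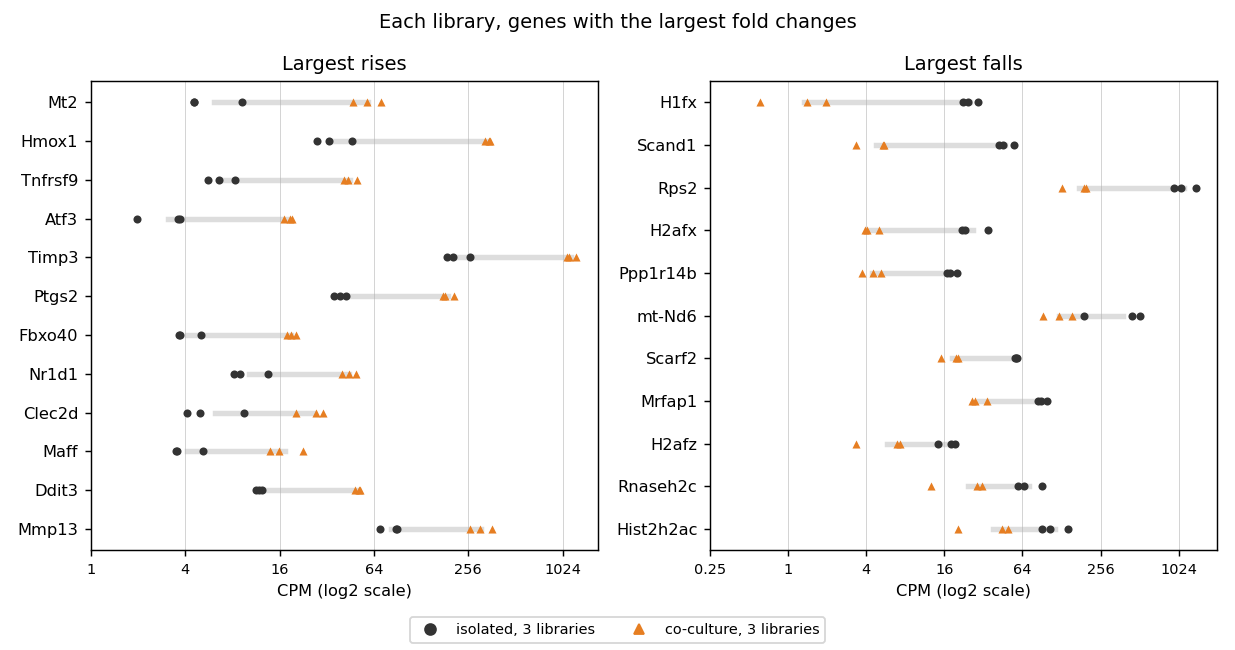
CPM of each library on a log2 scale (x axis) for the 12 genes with the largest rises (left) and 11 of the 12 with the largest falls (right), by the rule for named genes. Circles are the 3 isolated libraries and triangles the 3 co-cultures, which do not overlap for any of these genes because the rule asked for it.

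In absolute level the largest rise among called genes was that of Fn1, fibronectin, an adhesive matrix protein. It was at 9508, 8861 and 9054 CPM in isolated cells and at 19389, 17644 and 20808 CPM in co-culture (1.08 ± 0.10, adjusted p = 9e-07, edgeR). Vim, the intermediate filament vimentin, rose from 4379 to 7510.4 CPM, Ahnak, a large scaffold protein, from 4689 to 6289 CPM, and Aldoa, an aldolase of glycolysis, from 964 to 2106 CPM. Fmod, fibromodulin (0.65), Hsp90ab1, a cytosolic chaperone (0.67), Calr, calreticulin (0.54), and Col5a1, a fibrillar collagen (0.46), were also among the largest gains. Among called genes, losses in level were led by mt-Rnr1, a mitochondrial ribosomal RNA (-0.92), Ibsp, bone sialoprotein, and CT010467.1, annotated as ribosomal RNA (-2.70). Gnas, a G protein subunit (-0.51), Sh3pxd2a, a podosome scaffold (-0.41), Serpinh1, the collagen chaperone HSP47 (-0.44), and Thbs1, thrombospondin (-0.59), followed. The call of mt-Rnr1 was lost without isolated library 1 (adjusted p = 0.0673, edgeR) and with no filter on low counts (0.105). That of Sh3pxd2a was lost without co-culture library 2 (0.0599), and that of Serpinh1 without co-culture library 1 (0.146) or 2 (0.0927) or isolated library 2 (0.0693) or 3 (0.0739). The pseudogene Gm11478 (0.95) is uncertain, since it lies within Vmp1 and its call was lost without any of isolated libraries 1 and 2, co-culture libraries 1 and 2 or isolated nanotopography library 2, and with no filter on low counts (0.164).

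Signals from osteoblasts to osteoclasts changed in both directions. Of 12 tested members of the list of osteoclast-directed and immune signals, 4 were higher, 2 lower and 6 not called, with a median log2 fold change of 0.21 against -0.02 over all tested genes. Csf1, which osteoclast precursors need to survive, was at 183, 180.4 and 179 CPM in isolated cells and at 300.0, 285 and 310.4 CPM in co-culture (0.72 ± 0.09, adjusted p = 3.96e-05, edgeR). Tnfrsf11b, the decoy for RANKL, was at 392, 339 and 362 CPM in isolated cells and at 249, 231 and 206 CPM in co-culture (-0.67 ± 0.11, adjusted p = 0.000457). Neither gene overlapped between groups. Tnfsf11, RANKL itself, had 0 counts in all 6 libraries, which allows a level of up to 0.137 CPM in isolated cells and 0.130 CPM in co-culture. Spp1, osteopontin, a matrix ligand of integrins on osteoclasts, was at 238, 195 and 189.6 CPM in isolated cells and at 361, 316 and 329 CPM in co-culture (0.69). Cxcl12, a chemokine, fell (-0.44), and Sema3e, a secreted semaphorin, was called higher from 4 counts over the 3 isolated libraries to 49 in co-culture (3.41, and 4.61 without isolated library 1). With removal of the GC and length trends 4 members were lower.

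Of 14 tested genes of prostaglandin and nitric oxide synthesis, 6 were higher, 2 lower and 6 not called (median 0.18). Ptgs2, the inducible cyclooxygenase, was at 42.7, 38.9 and 35.3 CPM in isolated cells and at 207, 177 and 181 CPM in co-culture (2.27 ± 0.12, adjusted p = 1.29e-09, edgeR). Nos2, the inducible nitric oxide synthase, was near the limit of counting in isolated cells at 0.130, 0.233 and 0.673 CPM and reached 5.52, 6.85 and 5.27 CPM in co-culture (4.14 ± 0.42, and 4.88 without isolated library 3). Ptgis, prostacyclin synthase (1.07), and Ass1, which remakes the arginine that nitric oxide synthases use (1.21), also rose, while Ptgfr, the receptor of prostaglandin F, fell (-0.75). The 2 lower were 1 without co-culture library 1 or 2 or isolated library 2 or 3 and 4 with removal of the GC and length trends. Of 25 tested genes of NF-κB feedback and inflammation, 9 were higher, 1 lower and 15 not called (median 0.18). Tnfaip3 (1.14), which limits NF-κB signalling, Ptx3 (1.26), a secreted pattern recognition protein, Nfkbiz (0.91) and Tnip1 (0.59) rose, and Sod2, mitochondrial superoxide dismutase, fell (-0.62), 1 of 2 lower without co-culture library 3 or isolated library 3 or with removal of the GC and length trends. The call of Tnip1 was lost without isolated library 1 or 2 (adjusted p 0.0795 and 0.0801, edgeR). The count of 9 was 3 without isolated library 1, 4 without isolated library 2 or co-culture library 2, and 5 with upper-quartile scaling. Interferon-stimulated genes were 3 higher, 1 lower and 18 not called of 22, a share of calls (18.2%) near the 19.8% over all tested genes. They were Tap1 (1.12), a peptide transporter of antigen presentation, Ifit1 (3.42, from 0.264 to 3.04 CPM), Irf9 (1.00) and, lower, Xaf1 (-0.47), whose call was lost without co-culture library 3 (adjusted p = 0.0548, edgeR). Without isolated library 3, or with only the groups compared, the interferon-stimulated genes called higher were 5.

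Of the matrix proteases, 3 of 25 were higher, 4 lower and 18 not called, and the 28.0% called compare with 19.8% over all tested genes. Mmp13, which cuts fibrillar collagen, was at 89.8, 69.4 and 88.5 CPM in isolated cells and at 362, 303 and 261 CPM in co-culture (1.90 ± 0.16, adjusted p = 3.7e-07, edgeR), with no overlap. Htra1 (0.56), a secreted serine protease, rose, and Adamts18 (-2.05), Adamts10 (-0.75) and Mmp16 (-0.91), a membrane-type metalloproteinase, fell. With upper-quartile scaling 7 proteases were lower, and with removal of the trends with GC content and length 9 were. Protease inhibitors were 5 higher, 2 lower and 6 not called of 13. Besides Timp3 the serpins Serpinb6a (0.75) and Serpinf1 (0.37) rose and Reck (-0.54) fell. The call of Serpinf1 was lost without co-culture library 2 or isolated library 1 or 2, with adjusted p between 0.0674 and 0.0757 (edgeR). Inhibitors called higher were 3 without any of these 3 libraries, and the 2 lower were 1 without co-culture library 1 or 2 or isolated library 2 or 3. The median of the inhibitors, 0.03, was -0.02 with upper-quartile scaling.

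The 2 chains of type I collagen were not called. Col1a1 was at 48627, 44799 and 40649 CPM in isolated cells and at 36034, 37642 and 44279 CPM in co-culture (-0.18 ± 0.11, adjusted p = 0.266, edgeR), and Col1a2 at 32706, 32716 and 30528 CPM and at 27929, 29435 and 32874 CPM (-0.09). The groups overlapped for both, and also for Sparc, osteonectin (-0.08). Of 28 tested collagens 7 were higher, 2 lower and 19 not called, with 32.1% called. Col4a2 (0.75) and Col18a1 (0.79), of basement membranes, and Col12a1 (0.54), which decorates fibrils, rose, and Col24a1 (-1.15) and Col11a2 (-0.87), fibrillar collagens, fell. The number of lower collagens was 4 without isolated library 3, with upper-quartile scaling, with no filter on low counts or with only the groups compared, and 5 with removal of the GC and length trends.

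Collagen-processing enzymes were 7 higher, 8 lower and 13 not called of 28. Loxl4 (0.90), a crosslinking oxidase, P3h2 (0.86) and P4ha2 (0.68), prolyl hydroxylases, rose, and Fkbp14 (-0.74), a folding enzyme, and Pcolce2 (-0.83), an enhancer of procollagen cleavage, fell. The 8 lower were 2 without co-culture library 1 and 4 without co-culture library 2 or isolated library 2 or 3. Other matrix and matricellular genes leaned higher, with 10 of 33 higher and 4 lower (median 0.21). Among them were Tnc, tenascin C (0.73), Fbln2, fibulin (0.97), and the matricellular Ccn2 (1.23) and Ccn5 (2.23, and 3.0 without isolated library 3). Small leucine-rich proteoglycans, which bind collagen fibrils, were 2 higher, 4 lower and 5 not called of 11. Lum, lumican, fell from 427, 331 and 309.6 CPM to 208, 186 and 168 CPM (-0.93), and Omd, osteomodulin (-1.23), Dcn, decorin (-0.50), and Nyx (-0.80) fell, while Fmod rose. The 2 higher were 1 without any of co-culture libraries 2 and 3 and isolated libraries 1, 2 and 3, with upper-quartile scaling and with no filter on low counts. The call of Dcn was lost with removal of the GC and length trends (adjusted p = 0.0645, edgeR), that of Omd with no filter on low counts (0.0808) and that of Nyx without co-culture library 1 or 3 or isolated library 2 (0.0542 to 0.0574).

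Genes of the mineralisation list were lower more often than higher: of 25 tested, 10 were lower, 2 higher and 13 not called, with a median of -0.09. The list also holds Tnfrsf11b, called lower, and Spp1, called higher, which are counted among the osteoclast-directed signals as well. Smpd3, a neutral sphingomyelinase needed for bone mineralisation, was at 1343, 1424 and 1289 CPM in isolated cells and at 442, 485 and 519.8 CPM in co-culture (-1.49 ± 0.10, adjusted p = 3.34e-08, edgeR). The lowest isolated library held more than 2 times the highest co-culture library. Smpd3 lies at chr8:106252548-106337988 (mm10) and overlaps Prmt7 on the opposite strand, which was called higher. Phospho1, a phosphatase of matrix vesicles, was at 139.6, 158 and 135 CPM in isolated cells and at 59.7, 85.8 and 90.9 CPM in co-culture (-0.88). It overlaps Abi3 on the opposite strand, which was also called lower, from 64.8 to 24.8 CPM (-1.39). It also overlaps Zfp652 on the same strand, which was not called. Matn4, a matrilin, fell from 152 to 67.7 CPM (-1.17). Without isolated library 1, 6 mineralisation genes were lower.

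Ibsp, a nucleator of mineral, was at 14548, 12705 and 9497 CPM in isolated cells and at 8343, 7739 and 9003 CPM in co-culture (-0.55 ± 0.14, adjusted p = 0.0124, edgeR). The groups did not overlap, but the call was lost without co-culture library 2 (0.0734), isolated library 1 (0.0812) or isolated library 2 (0.0558). Dmp1, an osteocyte matrix protein, was at 22.1, 18.3 and 13.1 CPM and at 7.25, 5.87 and 13.1 CPM (-1.06, adjusted p = 0.01), so the groups met, and its call was lost without co-culture library 1 or 2 or isolated library 1 (0.0576 to 0.0687). Alpl, alkaline phosphatase (0.14, adjusted p = 0.477), and Bglap, osteocalcin (-0.04, adjusted p = 0.902), overlapped between the groups and were not called. Bglap was at 64.1, 72.2 and 53.3 CPM in isolated cells and at 52.0, 48.6 and 85.1 CPM in co-culture, and its sign turned with removal of the GC and length trends and without co-culture library 1 or 2 or isolated library 2.

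Transcription factors of the osteoblast lineage were 3 higher, 6 lower and 17 not called of 26 (median -0.22). Runx2, the master regulator of the lineage, was at 389, 381 and 313 CPM in isolated cells and at 276, 247 and 313 CPM in co-culture (-0.37 ± 0.12, adjusted p = 0.0360, edgeR). Its groups overlapped, and the call was lost without any of co-culture libraries 1 and 2, isolated libraries 1 and 2 and, on nanotopography, co-culture library 3 and isolated library 3 (adjusted p 0.0501 to 0.186). Sp7, osterix, was not called (-0.15, adjusted p = 0.327) and was called lower with removal of the GC and length trends (-0.24, adjusted p = 0.0304). Six2 (-0.97) and Dlx6 (-0.77) fell, and Atf4 (0.62) and Foxc1 (0.41) rose. The calls of Dlx6 and Foxc1 were lost without co-culture library 2 or isolated library 1, and that of Foxc1 also without co-culture library 3, without isolated library 2 or 3, with no filter on low counts (adjusted p = 0.0554, edgeR) and with removal of the GC and length trends (0.0944). The 3 higher were 1 without co-culture library 2 or 3 or isolated library 1 or 2 and with no filter on low counts. The 6 lower were 10 with removal of the GC and length trends, 1 without co-culture library 2 or isolated library 1 and 3 without co-culture library 1 or isolated library 2. Of 8 tested chondrocyte genes 4 were lower (2 without co-culture library 2 or isolated library 1 or 2, 7 with removal of the GC and length trends), Col11a2, Hapln1, a link protein of aggrecan (-0.71), Comp (-1.25) and Sox9, the chondrocyte regulator (-0.33). The calls of Comp and Sox9 were lost without any of isolated libraries 1 and 2 and co-culture libraries 1 and 2, and that of Sox9 also without co-culture nanotopography library 3 (adjusted p = 0.0560, edgeR).

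**Figure D3:**
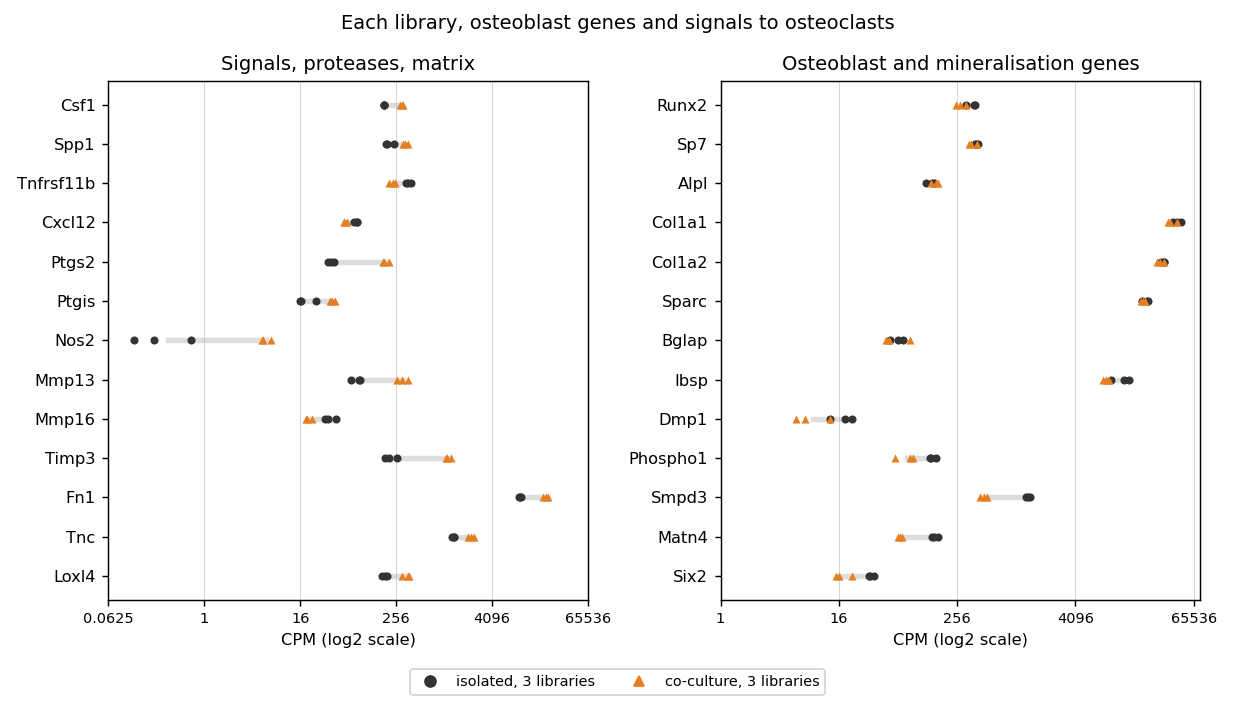
CPM of each library on a log2 scale (x axis) for signals, proteases and matrix genes (left) and for osteoblast and mineralisation genes (right). Circles are the 3 isolated libraries and triangles the 3 co-cultures; Col1a1, Col1a2, Sp7, Alpl, Sparc, Bglap and Runx2 overlap between the groups, and Smpd3, Ptgs2, Timp3 and Mmp13 stand apart.

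Wnt signalling, which drives osteoblast formation, was 7 higher, 12 lower and 15 not called of 34 (median -0.19). Fzd2, a Wnt receptor, was at 44.9, 40.3 and 42.6 CPM in isolated cells and at 18.3, 16.8 and 24.7 CPM in co-culture (-1.10 ± 0.15, adjusted p = 6.65e-05, edgeR). Fzd8 (-0.66), another receptor, and the ligand Wnt4 (-1.03) fell, and the co-receptor Lrp5 (0.58) and Sfrp2 (0.61), a secreted modulator, rose. The 12 lower were 7 without co-culture library 1 and 6 without co-culture library 2, and the 7 higher were 4 without co-culture library 3 or isolated library 1 and 3 without isolated library 2. BMP and TGF-β genes were 10 higher, 8 lower and 20 not called of 38. Tgfbr3, a co-receptor (0.71), and Tgfbi, a TGF-β-induced matrix protein (0.78), rose, and Id4 (-1.08), a target of BMP signalling, Smad6 (-0.92), an inhibitor of it, and the ligand Gdf11 (-0.62) fell. The 10 higher were 5 without isolated library 2.

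Growth factor ligands were 4 higher, 2 lower and 11 not called of 17. Vegfa, the angiogenic factor, was at 287, 248 and 220.1 CPM in isolated cells and at 444, 438 and 467 CPM in co-culture (0.84 ± 0.12, adjusted p = 8.13e-05, edgeR). Vegfb (0.80) and Pdgfc (0.36) rose too, while Pdgfa (-0.56) and Fgf2 (-1.34) fell. Receptors of growth factors and cytokines were 9 higher, 3 lower and 19 not called of 31, among them Pdgfrb (0.62), Osmr (0.73), Ednra (0.44), Il6ra (1.45) and Igf2r (0.33). The 9 were 5 with upper-quartile scaling, 3 without co-culture library 1 and 4 without isolated library 2, and the 3 lower were 0 without co-culture library 2 or 3 or isolated library 1 or 2. The 4 ligands higher were 2 without isolated library 2. The calls of Il6ra and Igf2r were lost without co-culture library 1, and those of Pdgfc and Igf2r without isolated library 2 and with no filter on low counts (adjusted p 0.0510 and 0.0605, edgeR). Of 8 tested IGF-binding proteins and their proteases, Igfbp5 (0.74), Igfbp4 (0.75) and the protease Pappa2 (0.51) rose and Igfbp7 fell (-0.78). The call of Igfbp7 was lost without any of co-culture libraries 1 and 2 and isolated libraries 1 and 2, and 2 members were lower with no filter on low counts. Notch1 (1.07), Notch3 (0.76) and their ligand Jag1 (0.79) rose, and Sema6a, a transmembrane semaphorin, fell (-0.99). They belong to a list of semaphorins, ephrins and Notch genes with 5 of 32 higher and 4 lower (28.1% called), the latter 1 without co-culture library 1 or 2 or isolated library 2 and 2 without isolated library 1.

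Of 26 tested genes of glycolysis 20 were higher, 0 lower and 6 not called, with a median of 0.82. The 20 were between 16 and 22 when any 1 of the 6 libraries was left out, and 1 was lower without isolated library 1 or with removal of the GC and length trends. Slc2a1, the glucose transporter GLUT1, was at 73.8, 82.4 and 104 CPM in isolated cells and at 255, 270.2 and 246 CPM in co-culture (1.57 ± 0.14, adjusted p = 8.11e-07, edgeR). The hexokinases Hk1 (1.09) and Hk2 (0.97), which trap glucose in the cell, the phosphofructokinase Pfkp (0.94) and Gbe1, a glycogen branching enzyme (1.24), rose, as did Aldoa (1.13). Other targets of hypoxia-inducible factor were 17 higher, 1 lower and 10 not called of 28 (median 0.55), with 0 lower without co-culture library 1 or 2 or isolated library 1 or 2. Car9, a carbonic anhydrase at the cell surface, was at 46.8, 45.6 and 56.9 CPM in isolated cells and at 169.7, 187 and 149 CPM in co-culture (1.76). Ero1l (1.68), an oxidase of the endoplasmic reticulum, Ndrg1 (1.48), Bhlhe40 (1.41) and the oxygen-sensing prolyl hydroxylase Egln1 (0.92) followed. None of these 11 genes overlapped between groups, as was so for 95.8% of all called genes and 36.1% of all tested genes. Oxygen in the medium and cell number were not recorded in the labels.

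Of 27 tested heat shock proteins 14 were higher, 0 lower and 13 not called (median 0.46), between 12 and 14 with 1 of the 6 libraries left out. Hspa9, the mitochondrial HSP70, was at 392, 396 and 423 CPM in isolated cells and at 1085, 1032 and 936 CPM in co-culture (1.34 ± 0.10, adjusted p = 8.67e-08, edgeR). Hspa1b, the inducible HSP70, rose from 2.53 to 16.9 CPM (2.74), and Hsph1 (1.44), Dnajb1 (1.26) and Hspb7 (1.20) rose. Of 28 tested genes of the integrated stress response, which slows translation and raises amino acid supply, 11 were higher, 1 lower and 16 not called (median 0.35). Ddit3 was at 12.4, 11.8 and 11.3 CPM in isolated cells and at 51.3, 52.1 and 48.5 CPM in co-culture (2.10). Ppp1r15a (1.85), which restores translation, Trib3 (1.73), Atf3 and Atf4, the central activator, were the others with the smallest p. The 11 were 7 without isolated library 2, and the lower were 2 without co-culture library 3 or with removal of the GC and length trends.

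Transfer RNA synthetases, many of them targets of Atf4, were 8 higher, 0 lower and 12 not called of 20 (median 0.27). Sars (0.94), Aars (0.74), Nars (0.48), Cars (0.43) and Lars (0.38) had the smallest p. The call of Cars was lost without isolated library 1 (adjusted p = 0.0515, edgeR) and that of Lars without isolated library 2 (0.0791), and the 8 were 4 without isolated library 1 and 5 without isolated library 2. Slc3a2, the shared chain of several amino acid transporters, was at 113, 106 and 141 CPM in isolated cells and at 338, 375 and 307 CPM in co-culture (1.5 ± 0.14). With Slc7a1 (0.50), Slc6a6 (0.42) and Slc7a5 (0.52) it was among 5 of 18 transporters called higher, against 2 lower, and the 5 were 3 without co-culture library 2 or isolated library 1 or 2. The 2 lower were 1 or 0 without any of the 6 libraries, 1 with no filter on low counts, with CPM of at least 1 in 3 libraries or with DESeq2, and 5 with removal of the GC and length trends. The call of Slc7a5 was lost without co-culture library 2 or isolated library 1 or 2 (0.0585 to 0.0707). Chaperones and unfolded protein response genes of the endoplasmic reticulum did not follow: of 29 tested 7 were higher and 9 lower (median -0.11). Ssr1, of the translocon complex, fell from 667, 644 and 605 CPM to 379.6, 371 and 391 CPM (-0.75), and Selenos (-0.64), Dnajb11 (-0.55), Dnajc3 (-0.61) and Manf (-0.47) fell. The 7 higher were 4 without co-culture library 1, 2 without isolated library 2 and 4 with upper-quartile scaling, and the 9 lower were 5 without isolated library 1, where the call of Dnajc3 was lost (adjusted p = 0.0634, edgeR).

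NRF2, a transcription factor activated by oxidants, has a set of known targets, of which 13 of 28 were higher, 1 lower and 14 not called (median 0.40). Besides Hmox1 they included Abcc1, a glutathione conjugate exporter (1.04), Gstm1, a glutathione transferase (1.06), and Nfe2l2, NRF2 itself (0.78). Nfe2l2 was at 66.9, 63.8 and 69.0 CPM in isolated cells and at 116, 107 and 119 CPM in co-culture, with no overlap. Idh1, a cytosolic source of NADPH, fell (-0.69), and 2 targets were lower without co-culture library 1 or isolated library 3, with upper-quartile scaling, with no filter on low counts, with only the groups compared or with removal of the GC and length trends. Metal and iron genes were 10 higher, 0 lower and 15 not called of 25 (median 0.16), and 6 higher without isolated library 2. Mt1 was at 9.39, 10.8 and 16.3 CPM in isolated cells and at 28.0, 33.4 and 42.5 CPM in co-culture (1.52 ± 0.20, adjusted p = 4.39e-05, edgeR). Ftl1, ferritin light chain, which stores iron (1.28), and Cp, ceruloplasmin, a copper ferroxidase (1.11), rose. Ftl1 has many pseudogenes, so its counts are uncertain.

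Targets of p53 were 11 higher, 1 lower and 14 not called of 26, with a median of 0.25 that was 0.45 with removal of the GC and length trends. Gadd45a (2.51), Plk2 (1.26), Tnfrsf10b (0.79), Ei24 (0.69) and Ccng2 (0.68) were those with the smallest p, and the 11 were 5 without isolated library 2, while the 1 lower was 0 without any 1 of the 6 libraries, with no filter on low counts, with DESeq2 or with only the groups compared. Immediate early genes split into 16 higher and 6 lower of 36. Ier3 (1.49), Atf3 and Maff rose, and Jund (-1.36, and -0.61 with removal of the GC and length trends) and Klf4 (-0.77) fell. Klf4 was at 477, 477 and 463 CPM in isolated cells and at 279, 268 and 282 CPM in co-culture. Of 21 tested clock and glucocorticoid genes 12 were higher, 1 lower and 8 not called (median 0.37). The clock repressors Nr1d1, Nr1d2 (0.92), Bhlhe40 and Bhlhe41 (1.29) and the repressor Nfil3 (0.85) rose together. None of the 5 overlapped between groups, as was so for 95.8% of all called genes.

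Lysosomal genes and subunits of the proton pump were 30 higher, 0 lower and 21 not called of 51 (median 0.43), and 17 higher without isolated library 2. Atp6v1a, a pump subunit, was at 48.7, 48.2 and 61.6 CPM in isolated cells and at 105, 103 and 88.0 CPM in co-culture (0.90 ± 0.12, adjusted p = 3.36e-05, edgeR), with no overlap. Grn (0.86), progranulin, rose by a similar amount. Gpnmb, a glycoprotein of lysosomes that osteoblasts and macrophages both make, was at 0.261, 0.700 and 0.673 CPM in isolated cells and at 5.08, 8.67 and 8.14 CPM in co-culture (3.69). Of 28 autophagy genes 7 were higher and 1 lower, with 28.6% called. Sqstm1, the cargo receptor p62, rose from 245 to 586 CPM (1.26), Vmp1 (0.55), Uvrag (0.50) and Gabarapl1 (0.53) rose, and Wipi1 fell (-0.56). The 7 were 3 without co-culture library 2 and 2 without isolated library 2, with the calls of Gabarapl1 lost in both cases and that of Uvrag in the latter.

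Lysosomal genes are also high in macrophages and osteoclasts, the cells of the insert. Of 20 macrophage markers 5 were expressed enough to be tested and 0 were called. Their median log2 fold change was 0.61, against -0.02 over all tested genes. The summed level of the 20 was 4.77 to 8.35 CPM in isolated cells and 5.97 to 13.0 CPM in co-culture. In isolated cells 11 of the 20 had 0 counts and in co-culture 6 did, and Adgre1, Itgam, Cybb, Fcgr3, Fcgr2b and Aif1 were at 0 in both groups. Small counts of others, over the 3 libraries of a group, went from 1 to 8 for Ctss, from 1 to 11 for Coro1a and from 3 to 15 for Laptm5. Those of Fcer1g went the other way, from 13 to 1. Of 18 osteoclast markers 9 were tested and 2 were higher, Itgb3 (1.15) and Clcn7 (0.45), of which 1 was called without co-culture library 2 or 3 or isolated library 1 or 2. The sum of these markers was 595 to 645 CPM in isolated cells and 691 to 769 CPM in co-culture. Acp5, the osteoclast phosphatase, went from 2 to 11 counts, Atp6v0d2 from 0 to 7 and Dcstamp from 0 to 6, and Calcr and Oscar were at 0 in both groups. The part of these small amounts of RNA in the lysosomal result, and in that of Gpnmb, was not tested.

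Of 23 tested genes of cholesterol synthesis 12 were lower, 0 higher and 11 not called, with a median of -0.35. Sqle, squalene epoxidase, was at 118, 119.8 and 127 CPM in isolated cells and at 82.1, 70.3 and 86.8 CPM in co-culture (-0.61 ± 0.10, adjusted p = 0.000497, edgeR). Mvk (-0.80), Cyp51 (-0.44) and the sterol carrier Stard4 (-0.56) also fell. For these genes no library of 1 group overlapped the other, as was so for 95.8% of all called genes. The 12 were 7 without co-culture library 1 or 2. Fatty acid and lipid genes were 6 higher and 3 lower of 30, with 30% called, and 7 and 7 with removal of the GC and length trends. Lpin1, a phosphatidate phosphatase (1.65), Plin2, a lipid droplet coat protein (1.01), Fabp5 (0.78) and Acadl (0.61) rose, and Fads2, a desaturase, fell (-0.67).

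Focal adhesion and integrin genes were 16 higher, 0 lower and 17 not called of 33 (median 0.29), between 11 and 16 with 1 library left out. Itgb3, the partner of αv integrin, was at 43.4, 43.8 and 55.4 CPM in isolated cells and at 107, 101 and 107 CPM in co-culture (1.15 ± 0.11, adjusted p = 1.04e-06, edgeR). Vcl, vinculin (0.59), Fermt2, a kindlin (0.58), Itgb5 (0.65) and Flnc, a filamin (0.68), rose. Actin and contractile genes were 10 higher, 0 lower and 17 not called of 27, and 2 were lower with upper-quartile scaling or with removal of the GC and length trends. Acta2, smooth muscle actin, was at 468, 546 and 760.5 CPM in isolated cells and at 1427, 1585 and 1428 CPM in co-culture (1.32 ± 0.16). Actg2 (1.26), Tagln (0.96), Myl9 (0.84) and Acta1 (3.93, from 7 counts over 3 libraries, and 4.93 without isolated library 2) rose. Acta1 is also a muscle marker, and it was the 1 called of the 3 tested muscle markers, whose summed level over 13 genes was 4.77 to 8.59 CPM in isolated cells and 11.1 to 12.1 CPM in co-culture. Targets of YAP were 3 higher of 24 (12.5% called), and 2 lower with removal of the GC and length trends. The 3 were F3, tissue factor (1.46), Ccn2 and Tead4 (0.53).

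Replication-dependent histones, whose messages mostly lack a poly(A) tail, were 19 lower, 0 higher and 27 not called of 46 (median -0.92). Hist1h2ab was at 16.2, 14.2 and 21.2 CPM in isolated cells and at 1.62, 2.10 and 1.36 CPM in co-culture (-3.32 ± 0.25, adjusted p = 8.67e-08, edgeR). Hist1h2ak (-3.82), Hist1h3b (-4.11), Hist2h3b (-3.75) and Hist1h2ai (-3.11) also fell. With removal of the GC and length trends Hist1h2ab was at -2.69, Hist1h2ak at -2.76, Hist2h3b at -2.92 and Hist1h2ai at -1.87, and without co-culture library 3 Hist1h3b was at -4.96. The members are near-identical copies and their counts are uncertain, and the 19 were 10 without co-culture library 1. Cell cycle genes, most of which are active in the same dividing cells, were 3 lower, 0 higher and 38 not called of 41. They were Ccnd1 (-0.42), Ccnd2 (-0.49) and Rrm2 (-0.69), whose call was lost without co-culture library 1 (adjusted p = 0.0539, edgeR) or 2 (0.0625). With upper-quartile scaling 6 were lower and with removal of the GC and length trends 7 were, with 1 higher. Without isolated library 3, 2 were higher.

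Cytosolic ribosomal proteins were 6 higher, 13 lower and 57 not called of 76 (median -0.12), with 25% called against 19.8% over all tested genes. Apart from Rps2, Rpl38 (-1.12), Rps20 (-0.61) and Rps27a (-0.79) fell and Rpl26 (0.49) rose. The 13 lower were 6 without co-culture library 1 or isolated library 2 and 8 without co-culture library 2 or isolated library 1. The 6 higher were 3 without co-culture library 2 or isolated library 1 or 2, 10 without isolated library 3 and 11 with removal of the GC and length trends. Nuclear genes of the respiratory chain were 4 higher, 14 lower and 60 not called of 78 (median -0.11), with 23.1% called. Cox6a1 was at 26.5, 27.1 and 29.3 CPM in isolated cells and at 8.87, 12.6 and 15.5 CPM in co-culture (-1.18), and Ndufa4 (-1.32), Atp5k (-1.68), Ndufa5 (-0.90) and Ndufc1 (-0.78) fell. The 14 were 7 without co-culture library 1 or 2 and 9 without isolated library 2. The 4 higher were 1 without co-culture library 2, 0 without isolated library 1 or 2, 7 with no filter on low counts or with only the groups compared, 9 without isolated library 3 and 10 with removal of the GC and length trends. The 8 tested mitochondrially encoded genes had a median of -0.87, of which mt-Nd6 alone was called; without co-culture library 3, 6 were called lower, without co-culture library 1 or 2 or isolated library 1 or 2, and with no filter on low counts, none was, and with limma-voom 5 were. With upper-quartile scaling or only the groups compared 2 were lower, and with removal of the GC and length trends the median was -0.47. The list has 13 genes, and mt-Atp6, mt-Atp8, mt-Co2, mt-Co3 and mt-Nd4l had 0 counts in both groups. The counts of mitochondrially encoded genes are therefore incomplete and uncertain, and the reason was not tested. Mitochondrial ribosomal proteins were 2 higher, 6 lower and 68 not called of 76, with Mrps30 (0.52) and Mrps9 (0.43) higher and Mrpl57 (-1.23), Mrps24 (-0.74) and Mrps18a (-0.52) among the lower. The 2 higher were 4 without co-culture library 1, 7 without isolated library 3, 5 with removal of the GC and length trends and 1 without co-culture library 3 or isolated library 1 or 2. The 6 lower were 10 with upper-quartile scaling, 11 with no filter on low counts or with removal of the GC and length trends, 2 without co-culture library 1 or 2 and 3 without isolated library 1 or 2, with the call of Mrps30 lost without isolated library 2, that of Mrps9 without co-culture library 3 or isolated library 1 and that of Mrps18a without co-culture library 1 or 2 or isolated library 2. Proteasome subunits were nearly level, with 1 of 35 higher, Psme1 (0.71; 3 higher without isolated library 3), and 2 lower, Psmc5 (-0.65) and Psmd14 (-0.32), whose call was lost without any of co-culture libraries 2 and 3 and isolated libraries 1, 2 and 3, without nanotopography co-culture library 3, with no filter on low counts and with removal of the GC and length trends.

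**Figure D4:**
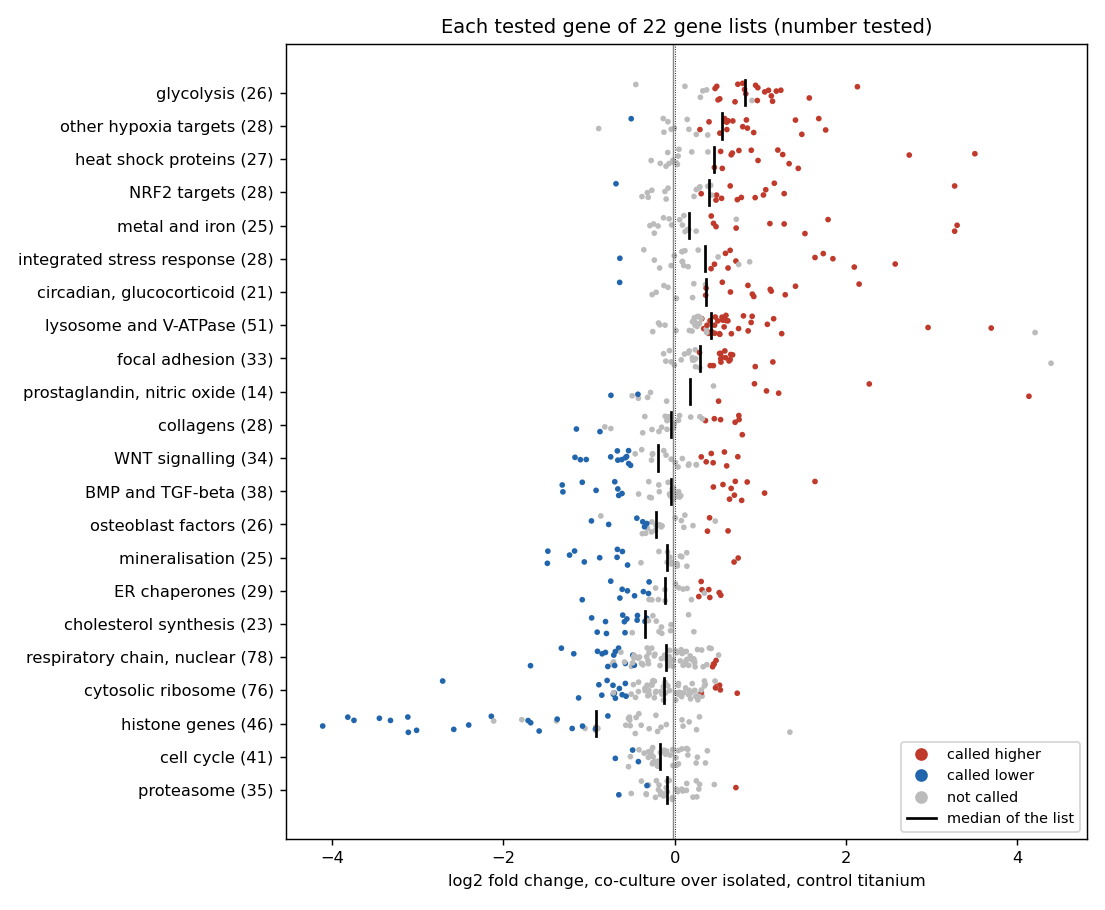
Log2 fold change of each tested member (x axis) of the main gene lists (y axis, tested members in brackets), with the median of each list and of all tested genes. Glycolysis, other hypoxia targets, heat shock proteins and lysosomal genes lie mostly above 0, and replication-dependent histones and cholesterol synthesis mostly below.

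The series is about histone methylation, so its enzymes were described as a group. Of 48 tested histone methyltransferases 6 were higher, 2 lower and 40 not called, a share of 16.7% against 19.8% over all tested genes. Ezh1, one of the methyltransferases of Polycomb repressive complex, was at 30.5, 33.2 and 31.8 CPM in isolated cells and at 52.0, 54.1 and 47.6 CPM in co-culture (0.69 ± 0.11, adjusted p = 0.000411, edgeR). Ezh2, its paralog, was at 80.5, 67.3 and 65.3 CPM and at 68.3, 73.2 and 71.7 CPM, overlapping, and was not called. Smyd3 (0.87), Prmt7 (0.71) and Setd3 (0.39) rose, and Setd7 fell (-0.34, adjusted p = 0.0281). The call of Setd7 was lost without any of co-culture libraries 1, 2 and 3 and isolated libraries 1 and 2 (0.0549 to 0.148). That of Prmt7 was lost without co-culture library 2 or isolated library 1 or 2. That of Setd3 was lost in the same fits and also without co-culture library 3. It was lost as well with upper-quartile scaling of all libraries (adjusted p = 0.0515, edgeR) and with no filter on low counts (0.0501). With upper-quartile scaling the 6 higher were 3, and without co-culture library 2 or isolated library 1 or 2 they were 2. The 2 lower were 1 or 0 without any of the 6 libraries and 1 with CPM of at least 1 in 3 libraries.

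Histone demethylases were 6 higher, 0 lower and 19 not called of 25, with 24.0% called. Kdm3a, which removes methyl groups from H3K9 and is known as a hypoxia target, was at 149.7, 141 and 140.2 CPM in isolated cells and at 276, 270.4 and 229.6 CPM in co-culture (0.85 ± 0.10, adjusted p = 1.39e-05, edgeR). Jmjd6 (0.74), Kdm4b (0.67), Kdm4c (0.43) and Kdm5b (0.35) rose, the last with a call lost without co-culture library 1 or isolated library 1 or 2 (0.0688 to 0.0769) and with no filter on low counts (0.0535). Kdm6b, a demethylase of H3K27, was not called (0.05, adjusted p = 0.774) and its groups overlapped. Among long noncoding RNAs H19 (1.40) and Neat1 (1.29) rose, Neat1 from 407, 624 and 462 CPM to 1162, 1261 and 1239.5 CPM, and Malat1, the most abundant of the list, was not called (0.20). Of that list 4 were higher and 4 lower of 25 (32.0% called), the latter 0 without isolated library 1 and 1 or 2 without any of the 3 co-culture libraries or isolated library 2, with Snhg12 (0.58) and 1810032O08Rik (0.80) higher and Dleu2 (-0.85) lower. The call of Dleu2 was lost without co-culture library 3 or isolated library 1, and that of 1810032O08Rik without co-culture library 1 or 2 or isolated library 2.

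On nanotopography the co-culture contrast called 7890 genes (59.1%), and libraries there carried a strong trend with GC content: the median change was 1.01 on the log2 scale for genes under 40% GC and -1.34 for genes over 60% GC, against -0.25 and -0.19 on control titanium. A test of the difference between surfaces called 6384 genes (47.9%), and 2796 (21.0%) after removal of each library's trends with GC content and transcript length. The difference was therefore read with and without that removal. Of the 243 genes at least 2-fold higher on control titanium, 144 were called higher on nanotopography and 8 lower, and with the removal 196 of 261 and 1. Of the 310 at least 2-fold lower, 178 were called lower there and 23 higher, and with the removal 123 of 260 and 8. These counts are to be read against the 59.1% of all tested genes called there in either direction. The shares of all tested genes by direction, and those with the removal, are not given here. No degree of agreement between surfaces is therefore read from the counts.

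Of the 24 genes with the largest changes on control titanium, 23 had the same sign on nanotopography, and with the removal all 24 did. The exception was mt-Nd6. The difference between surfaces was called both ways for 7 of the 24. Mt2 rose less on nanotopography, by 1.43 against 3.30 on the log2 scale (2.33 against 3.34 with the removal). Mmp13 rose more, by 3.26 against 1.90 (2.59 against 2.04). The falls of Rps2 (-4.96 against -2.71), Scand1, H2afz, Rnaseh2c and Hist2h2ac were larger on nanotopography both ways.

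**Figure D5:**
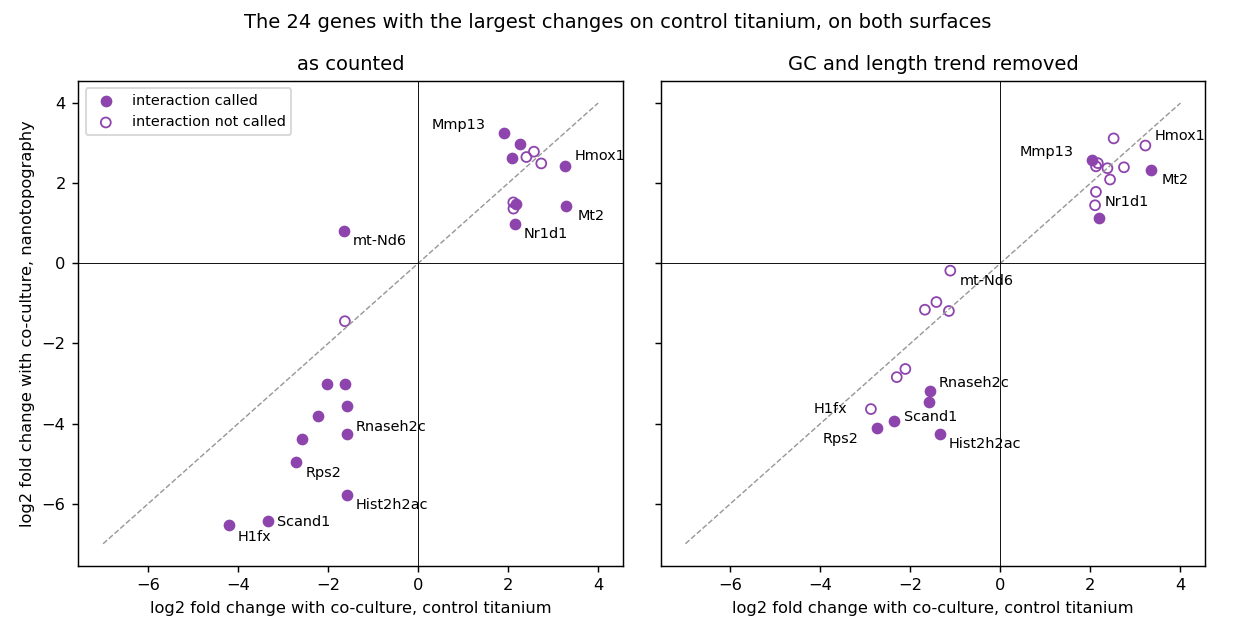
Log2 fold change with co-culture on nanotopography (y axis) against control titanium (x axis) for the 24 genes with the largest changes, as tested (left) and after removal of the trends with GC content and length (right). Filled points have a called difference between surfaces, and the dashed line marks equal change; Mt2 lies below the line and Mmp13 above it in both panels.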

How the data were processed

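Each file deposited by the authors holds raw counts of reads for every gene of 1 library and no other unit. Tools named in the submitters' processing notes are STAR 2.4, HTSeq, cutadapt, FastQC 0.63 and DESeq2, with the build mm10. Their roles, the annotation release and the strand setting are not given in the sources used here. Libraries were SMARTer, per the labels' protocols.

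The 52654 genes with a complete line in all 12 files were used, and 1621 further genes of the longest file were not. All 52654 identifiers matched GENCODE M21 (mm10) without their version, 52092 with it, and names, types, positions, GC content and lengths are from there. In R 4.3.3, edgeR 4.0.16 tested the 13340 genes that pass its low-count filter, after TMM scaling, with robust quasi-likelihood fits of 4 group means over all 12 libraries. P-values were adjusted by Benjamini-Hochberg over all tested genes, and an adjusted p below 0.05 is a call. Shared spread gave a biological coefficient of variation of 12.3%. The log2 fold changes are given with approximate standard errors, and values in CPM use scaled totals, with n = 3 libraries per group. For a gene at 0 the limit printed is that of 3 counts in the group, which covers counting error only.

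The members and gene lists were chosen with earlier results of these data known, so no list count stands as independent support. Named genes are the 12 largest rises and falls among called protein-coding genes with at least 10 CPM and no overlap, the 10 largest rises and falls in CPM, up to 5 called members of each list with the smallest p, a panel of bone, stress and histone genes and the 8 most abundant genes. Other called members of a list are counted but mostly not named, also where a list has 5 or fewer calls of a kind. A few genes that this rule takes in are not reported here by name; they stay in the counts.

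The alternatives tried were scaling by RLE or upper quartile, other filters, DESeq2 1.42.0, limma-voom (limma 3.58.1), only the groups compared, a replicate block, removal of GC and length trends (loess, span 0.3), a threshold of 0.01 and leaving out each library. On simulated data for this comparison over 13340 genes, the fit recovered 43.9% of 82 genes changed 1.5-fold, 79.6% of 54 changed 2-fold and 96.9% of 64 changed 4-fold, with 2 unchanged genes called. The simulated libraries had no GC or length trend, no other difference between groups and no outlying library. These rates therefore describe such simpler data and are not error rates of the real comparison. Promoters were searched over 250 bases before each RefSeq start (GRCm38.p6) on both strands.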

Additional observations from a re-analysis of the deposited data

Results flagged for a closer look

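For 7 of the 24 genes with the largest changes on control titanium, the test of the difference between surfaces was called both as tested and after removal of the trends with GC content and length. The difference is the log2 change with co-culture on nanotopography minus that on control titanium. For Mmp13 it was 1.35 (0.55 after the removal), a larger rise on nanotopography. For Mt2 it was -1.86 (-1.01), a smaller rise. The other differences were larger falls on nanotopography, namely -3.10 for Scand1 (-1.57), -2.25 for Rps2 (-1.37), -1.97 for H2afz (-1.87), -2.68 for Rnaseh2c (-1.61) and -4.19 for Hist2h2ac (-2.91). Groups of 3 libraries are too small for a check of single outlying values.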

How the results depend on the processing

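Of the 257 named genes that were tested, 256 kept their direction and side of the threshold with RLE or upper-quartile scaling, with DESeq2, with CPM of at least 1 in 3 libraries or with limma-voom. Between 229 and 253 did so without 1 of the 6 libraries compared. The count of 2637 called genes lay between 1432 and 2979 with 1 library left out, that of 553 genes with at least 2-fold change between 397 and 724, and that of 6384 genes with a called difference between surfaces between 5320 and 6952. An arm of 2 libraries is assumed to vary like the others. At an adjusted p below 0.01 1252 genes were called and 4173 had a called difference between surfaces. Removal of the GC and length trends gave 3559 called genes and 2796 with a called difference between surfaces, and together with the replicate block 3355 and 2538. Without a filter on low counts 1368 genes were higher and 1448 lower. With only the groups compared, the difference between surfaces could not be fitted. The cause of these shifts was not tested.

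Same-numbered libraries of the groups did not deviate together (correlations 0.133, -0.063 and -0.027), so their numbers give no pairing. The replicate block left 2473 called genes, 546 with at least 2-fold change and 6248 with a difference between surfaces. Under the block mt-Nd6 (adjusted p = 0.0823, edgeR) and Sox9 (0.0501) were not called, and under block and removal of the trends together Gm11478 (0.0563), Igf2r (0.0521) and Mrps30 (0.0668) were not, besides Foxc1, Psmd14 and Dcn.

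The sign changed only for 3 genes that were not called. Ezh2 was at 0.0026 on the log2 scale with RLE scaling, 0.0035 with CPM of at least 1 in 3 libraries, 0.0022 with DESeq2, 0.0039 with limma-voom and 0.0060 with the replicate block. It was at 0.061 with removal of the trends, 0.064 with removal and block together, and between -0.0395 and 0.104 with 1 library left out. Bglap was at 0.0088 with the removal, 0.0058 with removal and block together, and between -0.313 and 0.123 with 1 library left out, and Kdm6b between -0.0016 and 0.0991.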

Other observations

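Parts of the secretory pathway, which share members such as Ssr1 with the chaperone list above, were lower more often than higher. These 2 families were put together after the values of their members were seen, so the counts are a description. Of 33 tested genes of the translocon, signal recognition particle, signal peptidase and oligosaccharyltransferase, which bring new proteins into the endoplasmic reticulum, 13 were lower, 3 higher and 17 not called (median -0.29, against -0.02 over all tested genes). Srp9 (-1.12), Sec61b (-1.08), Ssr1 (-0.75) and Rpn1 (-0.59) fell, and Stt3b (0.44), a catalytic subunit of oligosaccharyltransferase, rose. Of 40 genes of vesicle coats, p24 proteins and cargo receptors, which carry proteins between endoplasmic reticulum and Golgi, 9 were lower, 2 higher and 29 not called (median -0.16). Kdelr2, a retrieval receptor, was at 317, 305 and 307 CPM in isolated cells and at 153, 153 and 171 CPM in co-culture (-0.96), and Tmed2 fell by 1.29 on the log2 scale.

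Over all tested genes 11.0% were higher and 8.76% lower (19.8% called). Of 50 tested small nucleolar RNAs 16 were lower and 0 higher (32% called). Antisense genes were 25 lower and 2 higher of 172 (15.7% called). Processed pseudogenes were 106 higher and 48 lower of 936 (16.45% called), so their share higher was near that of all tested genes. Protein-coding genes with a transcript under 500 bases were lower in 33.3% of 42 and higher in 0.0%, with a median of -0.72. Those over 5000 bases were lower in 7.37% and higher in 13.7% of 2687, with a median of 0.01.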
